A study of Rattus norvegicus with 24 samples.

Results

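The 5 genes described here code for 3 metabolic enzymes, 1 peroxisomal membrane protein and 1 amino acid transporter. They were measured in the rostral posterior hypothalamic (rPH) region of rats that had heard no, 1 or several loud noises. They are Cndp2 (ENSRNOG00000015591), Slc36a4 (ENSRNOG00000011455), Pgk1 (ENSRNOG00000058249), Acaca (ENSRNOG00000034013) and Acbd5 (ENSRNOG00000017642), 5 of the 32883 genes counted. All 5 were selected on these rats, being named in the list of genes that differed between the control rats and the rats with 7 noise exposures. Cndp2, Slc36a4 and Pgk1 were also in the list for control rats against 3 exposures, and Cndp2 in that for 1 against 7 exposures. The fold changes of those comparisons are therefore a description, and how many genes each tool called there is given only beside the share of all genes called. The comparisons that did not choose a gene were tested, although they share rats with those that did.

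Cndp2 is a cytosolic dipeptidase that splits dipeptides into free amino acids, the last step of peptide breakdown. Slc36a4 belongs to the SLC36 family of amino acid transporters and carries proline and tryptophan with high affinity. Pgk1 (phosphoglycerate kinase) makes ATP in glycolysis, the pathway by which brain tissue begins to use glucose. Acaca (acetyl-CoA carboxylase alpha) makes malonyl-CoA, the building unit of fatty acid synthesis. Acbd5 is a peroxisomal membrane protein that binds acyl-CoA and tethers peroxisomes to the endoplasmic reticulum, which aids the breakdown of very long chain fatty acids.

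All rats were adult male Sprague-Dawley rats that were placed daily in sound-attenuating chambers. The control group (C) heard no loud noise, and the acute stress (AS), RS3 and RS7 groups heard it on 1, 3 and 7 days. Tissue was taken 24 h later, and no other time was sampled. Each group held 6 rats, of which 5 were retained and 1 was left out by the study for few reads or poor library quality. Left out were rat 20 among the C rats, 18 among the AS rats, 8 among the RS3 rats and 1 among the RS7 rats, numbers inferred here from the study's printed means. In the 20 retained rats the counts on genes summed to between 8087697 and 16947298 per rat (median 12385781). The median total was 11298078 (C), 11858909 (AS), 12188012 (RS3) and 14189794 (RS7).

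Some retained libraries stood apart in how their counts were spread over genes. The 10 most abundant genes of a library took 20.1% of the counts in C rat 21, 20.3% in C rat 22 and 18.8% in RS7 rat 4. In the other retained rats this share was at most 14.9%. The left-out libraries held 25.1% (C), 46.3% (AS), 24.9% (RS3) and 33.8% (RS7) of their counts in 10 genes. The fold changes below are also given from 2 fits added after the data were seen, 1 without C rats 21 and 22 and 1 with this share as a covariate, where these moved them by over 1.5 times or bear on the C group.

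Levels are given in CPM, the counts of a gene relative to the library total, with totals scaled by the TMM method. All 5 genes passed the filter on low counts, as did 16202 genes in all, and among them the number of reads limits the precision of Acbd5 most. The fewest reads were those of Acbd5, with 153 to 470 reads per retained rat (median 291.5). Cndp2 had 529 to 1942 reads, Slc36a4 350 to 1155, Pgk1 705 to 2451 and Acaca 779 to 2101. Levels of different genes are not compared, since CPM does not account for transcript length.

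**Figure D1:**
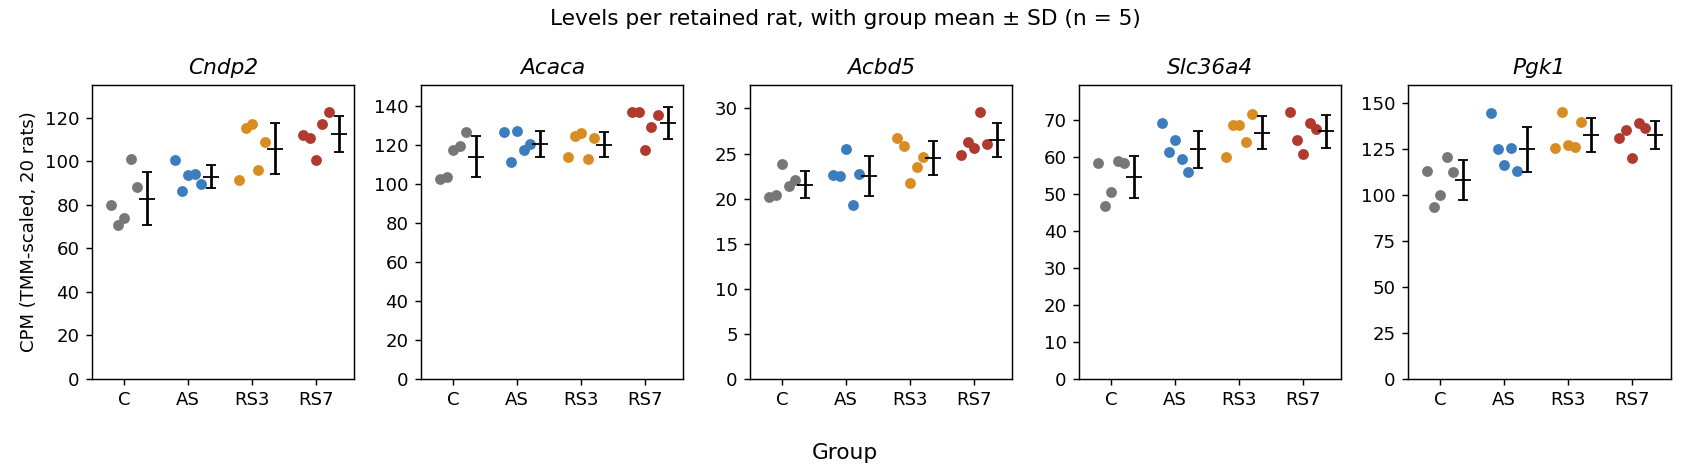
CPM of the 5 genes (y axis, TMM-scaled) in each retained rat of the C, AS, RS3 and RS7 groups (x axis), with the group mean ± SD (n = 5) as a black bar beside the points, which are in order of rat number. Every RS3 and RS7 rat lay above every C rat for Slc36a4, every RS7 rat above every C rat for Acbd5, and every RS3 rat above every C rat for Pgk1, while for Cndp2 and Acaca each group overlapped with the C group.

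Cndp2, the dipeptidase, had the lowest mean in the C group and the highest in the RS7 group. C rats 19, 21, 22, 23 and 24 had 79.9, 70.4, 73.8, 101 and 88.0 CPM. AS rats 13 to 17 had 101, 86.3, 93.5, 94.1 and 89.5 CPM. Every AS rat thus lay above the C mean, and none above C rat 23, the highest of its group. RS3 rats 7, 9, 10, 11 and 12 had 91.4, 115, 117, 95.8 and 109 CPM. RS7 rats 2 to 6 had 112, 110.4, 100.3, 117 and 123 CPM. In the RS7 group 4 of 5 rats lay above every C rat, and the exception was RS7 rat 4, the library with the large share of counts in 10 genes. The means were 82.6 ± 12.2 (C), 92.8 ± 5.37 (AS), 106 ± 11.6 (RS3) and 112 ± 8.30 CPM (RS7; SD, n = 5 each). The step from C to AS and the step from RS3 to RS7 were each smaller than the larger SD of the groups they join. In the comparisons that chose Cndp2, the log2 fold change was 0.35 ± 0.08 (SE) from C to RS3, 0.44 ± 0.08 from C to RS7 and 0.28 ± 0.08 from AS to RS7. Without C rats 21 and 22, Cndp2 was at 0.24 from C to RS3 and 0.32 from C to RS7, and with the share of counts in 10 genes as a covariate at 0.22 and 0.36.

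Slc36a4, the amino acid transporter, had its lowest mean in the C group and nearly equal means in the RS3 and RS7 groups. The C rats had 58.4, 46.6, 50.5, 58.9 and 58.3 CPM, in the same order of rats as above. The AS rats had 69.0, 61.3, 64.6, 59.3 and 55.9 CPM. C rats 21 and 22 were the lowest of all 20 rats, and 4 of 5 AS rats lay above every C rat. The RS3 rats had 60.1, 68.6, 68.7, 63.9 and 71.6 CPM. In the RS7 rats the level was 72.2, 64.6, 60.8, 69.2 and 67.6 CPM. Both groups lay wholly above the C group and overlapped with the AS group and with each other. Group means were 54.5 ± 5.67 (C), 62.0 ± 5.02 (AS), 66.6 ± 4.57 (RS3) and 66.9 ± 4.39 CPM (RS7; SD, n = 5 each). Of these neighbours, only C and AS were further apart than the larger SD of the pair. As a description of the comparisons that chose it, the log2 fold change of Slc36a4 was 0.28 ± 0.07 (SE) from C to RS3 and 0.29 ± 0.07 from C to RS7. These came to 0.19 and 0.19 without C rats 21 and 22, and to 0.17 and 0.22 with the covariate.

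The glycolytic enzyme Pgk1 was likewise lowest in the C group. Its levels in the C rats were 113, 93.8, 100.1, 121 and 113 CPM. The AS rats had 145, 125, 116, 126 and 113 CPM. Rat 13 was the highest of the AS group, as it was for Cndp2 and Slc36a4, and 3 of 5 AS rats lay above every C rat. The RS3 rats had 126, 146, 127, 126 and 140.1 CPM. RS7 rats had 131, 136, 120.2, 139.5 and 137 CPM, with RS7 rat 4 again the lowest. All RS3 rats lay above every C rat, and in the RS7 group rat 4 fell within the C range. The means were 108 ± 11.0 (C), 125 ± 12.4 (AS), 133 ± 9.22 (RS3) and 133 ± 7.59 CPM (RS7; SD, n = 5 each). AS, RS3 and RS7 followed each other by less than their SD. From C to RS3 and from C to RS7, which chose Pgk1, the log2 fold change was 0.29 ± 0.07 (SE) in both cases. It was 0.20 in both without C rats 21 and 22, and with the covariate 0.18 to RS3 and 0.23 to RS7. Pgk1 has processed copies elsewhere in mammalian genomes, and how reads with several positions were counted is not given in the sources used here, so its level is uncertain to that extent.

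Acaca, the enzyme of fatty acid synthesis, had the smallest log2 fold change of the 5 genes from C to RS7. The C rats had 102, 104, 117, 119.6 and 126 CPM. The AS rats had 126, 111, 127, 117 and 120.2 CPM. The groups overlapped over most of their range. The RS3 rats had 114, 125, 126, 113 and 123 CPM. RS7 rats 2 to 6 had 137, 137, 117, 129 and 135 CPM, and apart from rat 4 they lay above every other rat of the series' retained animals. The means were 114 ± 10.5 (C), 120.3 ± 6.66 (AS), 120.1 ± 6.48 (RS3) and 131 ± 8.33 CPM (RS7; SD, n = 5 each). C, AS and RS3 differed by less than the SD, and only the RS7 mean stood further from its neighbour. In C versus RS7, the comparison that chose Acaca, the log2 fold change was 0.20 ± 0.06 (SE), and 0.18 without C rats 21 and 22 and 0.17 with the covariate.

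Acbd5, the peroxisomal tether, was the only member for which RS7 rat 4 was not the lowest of its group. The C rats had 20.2, 20.4, 23.9, 21.4 and 22.0 CPM, and here C rat 22 was the highest of its group. The AS rats had 22.6, 22.5, 25.5, 19.3 and 22.7 CPM. AS rats 15 and 16 spanned more than the whole C range. The RS3 rats had 26.7, 25.8, 21.8, 23.5 and 24.6 CPM. The RS7 rats had 24.9, 26.3, 25.6, 29.7 and 26.0 CPM. Every RS7 rat lay above every C rat, and 4 of 5 above every AS rat. The means were 21.6 ± 1.49 (C), 22.5 ± 2.23 (AS), 24.5 ± 1.93 (RS3) and 26.5 ± 1.85 CPM (RS7; SD, n = 5 each). C and AS, and likewise AS and RS3, differed by less than the larger SD of the pair. From C to RS7, the comparison that chose Acbd5, the log2 fold change was 0.30 ± 0.08 (SE), and 0.32 both without C rats 21 and 22 and with the covariate.

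A gene was called differentially expressed at an adjusted p of 0.05 or less in edgeR's quasi-likelihood test. In the comparisons that chose the members the counts of calls are given without reading anything from them. In C versus RS7 edgeR called 1 of the 5 genes (Cndp2), where 0.148% of all tested genes were called. That call was lost without each of 11 rats named in the closing section, while the log2 fold change in those fits was 0.39 to 0.45. Without RS7 rat 4 all 5 members were called, as were 560 of all tested genes. The DESeq2 Wald test, the kind of test behind the lists, called all 5, and 2.73% of the 14849 genes left after its own filter. The member nearest to the threshold of the lists was Acaca, at an adjusted p of 0.0477 in DESeq2, which is a value of the choice and not a test. In C versus RS3 edgeR called 0 of 5 members and 0% of all genes, with 2639 genes at an unadjusted p under 0.05 and 0 called by limma-voom. DESeq2 called 3 of the members there (Cndp2, Slc36a4 and Pgk1) and 0.648% of the 5557 genes left after its own filter, to which Acbd5 did not belong. Acaca and Acbd5 were not chosen by C versus RS3, but its C rats were also those of C versus RS7, which chose them. Their signs in it are therefore not independent of the choice. Their log2 fold changes in C versus RS3 were 0.08 ± 0.06 (SE; edgeR adjusted p = 0.537, 3 of 5 RS3 rats above the C mean) and 0.18 ± 0.08 (adjusted p = 0.252, 5 of 5). Acaca there came to 0.02 with the covariate and 0.05 without C rats 21 and 22, and with 1 rat left out to 0.04 (without C rat 19 or 21) and 0.12 (without C rat 24), while Acbd5 came to 0.22 with the covariate and 0.20 without C rats 21 and 22. The rats of the later group lay wholly above the C rats for 2 members in C versus RS3 (1.22% of all genes) and for 2 in C versus RS7 (2.06% of all genes).

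C versus AS asks what a single noise left behind a day later, and played no part in choosing any member. Its C rats were also those of C versus RS7, which chose all 5 members, so the signs here are not independent of the choice. All 5 log2 fold changes were positive, and 0 of 5 genes were called, as were 0% of all genes. Pgk1 had the largest, 0.21 ± 0.07 (SE; edgeR adjusted p = 0.461), and all 5 AS rats lay above the C mean. For Slc36a4 it was 0.18 ± 0.07 (adjusted p = 0.461), also with 5 of 5 AS rats above the C mean. Cndp2 (0.16 ± 0.08, adjusted p = 0.520), Acaca (0.08 ± 0.06, adjusted p = 0.668) and Acbd5 (0.06 ± 0.08, adjusted p = 0.805) were closer to 0. An unadjusted p under 0.05 was found for 1625 genes, and DESeq2 and limma-voom also called 0. No member had AS rats wholly above the C rats, against 0.512% of all genes. Without C rats 21 and 22 the log2 fold changes came to 0.11 (Pgk1), 0.08 (Slc36a4), 0.05 (Cndp2), 0.05 (Acaca) and 0.09 (Acbd5). With the share of counts in 10 genes as a covariate, they were 0.09, 0.06, 0.03, 0.02 and 0.10 in the same order. With 1 rat left out, Cndp2 reached 0.25 (without C rat 23), Acaca ran from 0.04 (without C rat 19) to 0.12 (without C rat 24), and Acbd5 from 0.02 (without AS rat 15) to 0.11 (without AS rat 16). With all 24 rats Pgk1 was at 0.42, Acbd5 at 0.19 and Acaca at 0.02.

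AS versus RS3 and RS3 versus RS7 also chose no member, and 0 of 5 genes and 0% of all genes were called in each. Their RS3 and RS7 rats were also those of comparisons that chose members, so the signs are not independent of the choice either. From AS to RS3 the log2 fold change of Cndp2 was 0.19 ± 0.08 (SE), with 4 of 5 RS3 rats above the AS mean. Those of Acbd5 (0.12 ± 0.07), Slc36a4 (0.10 ± 0.07) and Pgk1 (0.09 ± 0.07) were smaller, and that of Acaca lay at -0.0012 ± 0.06, with an edgeR adjusted p of 1.0 for each of the 5. From RS3 to RS7 the log2 fold change was 0.13 ± 0.06 (SE) for Acaca (adjusted p = 0.661), 0.12 ± 0.07 for Acbd5 (adjusted p = 0.701) and 0.08 ± 0.08 for Cndp2 (adjusted p = 0.810). Slc36a4 and Pgk1 were at 0.0040 ± 0.07 and -0.0041 ± 0.07, with 95% intervals of -0.13 to 0.14 and -0.14 to 0.13. With the share of counts in 10 genes as a covariate, Cndp2 was at 0.14, Slc36a4 at 0.06 and Pgk1 at 0.04 from RS3 to RS7. With 1 rat left out, the value of Cndp2 from RS3 to RS7 was as low as 0.04 (without RS3 rat 7), and that of Acbd5 as low as 0.07 (without RS7 rat 5). Among all alternatives the highest value of Acbd5 from RS3 to RS7 was 0.18. From AS to RS3, Acbd5 was as low as 0.07 (without AS rat 16) and Slc36a4 as low as 0.07 (without AS rat 17), and Pgk1 ran from 0.05 (without RS3 rat 9) to 0.15 (without AS rat 13). The direction from AS to RS3 turned with all 24 rats for Acbd5 (-0.03) and Pgk1 (-0.12). Genes at an unadjusted p under 0.05 numbered 747 in AS versus RS3 and 1218 in RS3 versus RS7. DESeq2 called 3 and 0 genes and limma-voom 0 and 0. Neither comparison had a member whose later group lay wholly above the earlier group, against 0.383% and 0.87% of all genes.

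AS versus RS7 is the comparison between a noise heard on 1 day and a noise repeated on 7 days, and it had chosen Cndp2 but not the other 4 genes. Its RS7 rats were also those of C versus RS7, which chose all 5 members, so signs and calls here are not independent of the choice. EdgeR called 0 of the 5, where 1.67% of all genes were called. Acbd5 came nearest among the 4 genes that this comparison did not choose, with a log2 fold change of 0.24 ± 0.07 (SE; edgeR adjusted p = 0.0982) and all 5 RS7 rats above the AS mean. Limma-voom put it past the threshold (adjusted p = 0.0416), calling 2 members (Cndp2 and Acbd5) and 5.36% of all genes. DESeq2 called Cndp2 alone of the 5 and 3.9% of the 14849 genes left after its own filter, with Acbd5 at an adjusted p of 0.0569. EdgeR also called Acbd5 when AS rat 15 was left out (adjusted p = 0.0458), while with all 24 rats its log2 fold change was 0.15 and its adjusted p 0.804, the highest among the alternatives. For Acaca the log2 fold change was 0.12 ± 0.06 (adjusted p = 0.305), for Slc36a4 0.11 ± 0.07 (adjusted p = 0.459) and for Pgk1 0.08 ± 0.07 (adjusted p = 0.589), each with 4 of 5 RS7 rats above the AS mean. With the covariate Slc36a4 was at 0.16 and Pgk1 at 0.14, and Pgk1 was at 0.14 without AS rat 13 and 0.05 without AS rat 17. The direction of Pgk1 turned with all 24 rats (-0.03). The groups overlapped for each member, whereas RS7 lay wholly above AS for 2.39% of all genes.

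The left-out rats took no part in choosing the members and give 1 further value per group. On a scale set over all 24 rats, the left-out values of Cndp2 were 63.2 (C), 50.1 (AS), 72.4 (RS3) and 64.8 CPM (RS7). Each was below every retained rat of its own group, whose lowest values were 66.4 (C), 81.2 (AS), 86.1 (RS3) and 94.9 CPM (RS7), with and without the scaling. Slc36a4 was at 48.8 (C), 37.1 (AS), 50.4 (RS3) and 46.9 CPM (RS7). It fell below the retained rats in AS, RS3 and RS7 and within them in C, again with and without the scaling. Acaca, at 100.3 (C), 75.8 (AS), 99.1 (RS3) and 99.95 CPM (RS7), was within the C rats and below the others, and without the scaling below all of them. Pgk1 was at 88.8 (C), 220.5 (AS), 108 (RS3) and 159 CPM (RS7), above the retained rats in AS and RS7 and below them in RS3. Acbd5 was at 23.8 (C), 44.8 (AS), 24.9 (RS3) and 34.3 CPM (RS7), above the retained rats in C, AS and RS7. The high positions of Acbd5 and Pgk1 rest on the scaling, since without it these 5 values lay within the retained rats. In all, 8 of the 20 positions changed without the scaling. None of the 5 genes had its lowest left-out value in the C rat except Acbd5 and Pgk1.

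**Figure D2:**
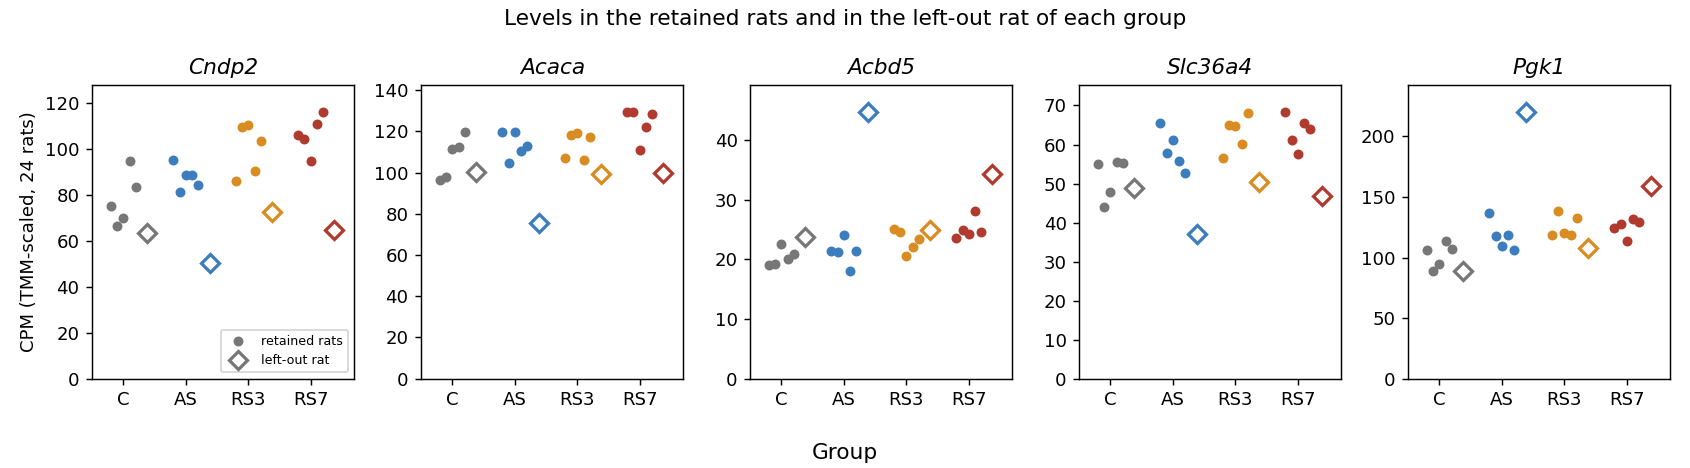
CPM of the 5 genes (y axis, TMM-scaled over 24 rats) in the retained rats (filled points) and in the left-out rat (open diamond) of each group (x axis). The left-out rat lay below the retained rats of its group in all 4 groups for Cndp2, and for Acbd5 and Pgk1 the left-out AS rat, at 44.8 and 220.5 CPM, lay far above them.

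Across the 20 retained rats the 5 genes varied together to unequal degrees, given here as Pearson's r of log2 CPM without a test, since the genes were chosen for a shared group pattern and their points share libraries and scaling. Slc36a4 and Pgk1 were most alike (r = 0.91), followed by Cndp2 with Slc36a4 (0.88), with Pgk1 (0.87) and with Acaca (0.78). Acaca had an r of 0.67 with Slc36a4 and 0.60 with Pgk1. When each rat was set against its own group mean, which removes the group pattern, these values were 0.80, 0.77, 0.75, 0.70, 0.56 and 0.44. Acbd5 behaved otherwise. Its r with the other 4 genes was 0.54 (Cndp2), 0.56 (Acaca), 0.50 (Slc36a4) and 0.48 (Pgk1) over all rats. Within groups it was -0.08, 0.23, 0.02 and 0.03 in the same order, so Acbd5 shared little of the others' spread among rats of a group. The retained libraries with the largest share of counts in few genes were C rats 21 and 22 and RS7 rat 4. C rats 21 and 22 were the lowest of their group for Cndp2, Slc36a4 and Pgk1, but not for Acaca. RS7 rat 4 was the lowest of its group for these 4 genes. For Acbd5, C rat 22 was the highest of its group, and RS7 rat 4 was not the lowest. The part of these libraries in the r within groups, here and below, was not tested. A shared group pattern was part of how the genes were chosen, so nothing is read from the values over all rats.

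The genes most like each member were sought among 16197 others, of which 774 have a symbol, all of these named in lists selected on the same rats. For Cndp2 they were Efr3b (r = 0.93, and 0.88 within groups), Lypd6b (0.93 and 0.87) and Lypd6 (0.92 and 0.84), with 0 unnamed genes ranking above them. Among the genes with a symbol, those most like Slc36a4 were Mmd (0.93 and 0.88), Ctnnb1 (0.92 and 0.85), the beta-catenin of Wnt signalling, and Abhd8 (0.91 and 0.83), with 6 unnamed genes above Mmd and 13 above Abhd8. Abhd8 (0.93 and 0.86) was also near to Pgk1, together with Bltp2 (0.93 and 0.88) and Chst2 (0.92 and 0.84), with 2 unnamed genes above Bltp2 and 4 above Chst2. Acaca had Gpcpd1 (0.84 and 0.81) and Samd5 (0.84 and 0.82), with 1 unnamed gene above the last. For Acbd5 they were the neuropeptide gene Cck (0.86 and 0.76), Uhrf1bp1l (0.86 and 0.87) and the spectrin gene Sptbn1 (0.86 and 0.78), with 0 unnamed genes above them.

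Few other genes of the same pathways could be followed. Of the lists drawn up for them, identifiers were at hand for 1 of 12 genes of dipeptide and peptide turnover, 1 of 18 of fatty acid synthesis, 1 of 16 of peroxisomes and their contacts, 2 of 16 of amino acid transport and 2 of 18 of glycolysis. No list reached the 80% needed for a count, and the genes beyond the members were Slc36a1 and Pkm, both selected on C versus RS7 as well. Slc36a1, a proton-coupled amino acid transporter of the same family as Slc36a4, had means of 65.9 ± 8.03 (C), 70.1 ± 7.57 (AS), 78.9 ± 10.5 (RS3) and 84.6 ± 8.23 CPM (RS7; SD, n = 5 each). Its log2 fold change from AS to RS7 was 0.27 ± 0.09 (SE; edgeR adjusted p = 0.135), against 0.11 for Slc36a4, a difference that was not tested. Pkm, the pyruvate kinase that acts further down the glycolytic pathway than Pgk1, had means of 215 ± 7.39 (C), 227 ± 7.90 (AS), 234 ± 9.38 (RS3) and 234 ± 5.75 CPM (RS7; SD, n = 5 each). Like Pgk1 it was level between RS3 and RS7, with a log2 fold change of -0.0014 ± 0.04 (SE).

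The tissue block was cut by landmarks at the 3rd ventricle and the mammillothalamic tracts, and may have held neighbouring thalamus. Summed levels of markers of thalamus, prethalamus and hypothalamus are therefore given beside those of the members. Of the marker lists, 7 of 12 genes of dorsal thalamus had an identifier, 6 of 8 of prethalamus and zona incerta, and 7 of 14 of hypothalamus. They have a symbol because they were themselves selected on these rats, so their direction is not independent, and none was at 0 in a retained rat. The dorsal thalamus genes (Tcf7l2, Lef1, Rorb, Slc17a6, Lhx9, Ntng1 and Foxp2), of which Slc17a6 was the most abundant, summed to 996, 825, 987, 1105 and 1053 CPM in C rats 19, 21, 22, 23 and 24. In AS rats 13 to 17 the sum was 1196, 986, 1151, 894 and 861 CPM. RS3 rats 7, 9, 10, 11 and 12 had 1215, 1318, 1202, 920.3 and 1211 CPM, and RS7 rats 2 to 6 had 1239, 1319, 1203, 1547 and 1269 CPM. Every RS7 rat was above every C and AS rat. Most of the sum came from Slc17a6, which glutamatergic neurons of other regions, hypothalamus among them, express too, so it is no measure of dorsal thalamus alone. Of the 20 genes of the 3 lists, edgeR called 1 in C versus RS7 (Foxp2), where 0.148% of all genes were called. In AS versus RS7 it called 3 (Foxp2, Rorb and Gad1), where 1.67% of all genes were called. In the other comparisons it called 0 of them and 0% of all genes. The part of these markers in the members' levels was not tested, and in a block of tissue a change in the cells it holds cannot be told apart from a change of RNA per cell.

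Prethalamus and zona incerta genes (Dlx5, Dlx6, Isl1, Gad1, Gad2 and Slc32a1), led by Gad2, had a lower mean sum in RS3 and RS7 than in C and AS. Most of the sum came from Gad1, Gad2 and Slc32a1, which GABA neurons of other regions express too, so it is no measure of that region alone. Their sum was 940.2, 829, 868, 595 and 1016 CPM in the C rats and 773, 1000.3, 834, 697 and 947 CPM in the AS rats. It came to 582, 497, 653, 673 and 689 CPM in the RS3 rats and 649, 483, 615, 529.6 and 519 CPM in the RS7 rats. The RS3 and RS7 rats lay below every AS rat, and C rat 23 lay among them, the C rat that was also highest for Cndp2, Slc36a4 and Pgk1. The hypothalamus genes (Gal, Calcr, Avp, Oxt, Trh, Sim1 and Prlhr) summed to 349, 126, 148, 59.7 and 258 CPM in the C rats and 160.5, 383, 198, 88.8 and 221 CPM in the AS rats. They came to 199, 31.2, 96.9, 59.1 and 91.3 CPM in the RS3 rats and 59.1, 37.9, 69.5, 47.1 and 22.2 CPM in the RS7 rats. C rat 23 was the lowest of its group, and RS3 rat 7 lay above 3 of 5 C rats. Oxt had the highest mean of the list in C and AS, and Calcr in RS3 and RS7. Most of the sum in C came from Oxt (47.5 ± 52.3 CPM), Trh (42.5 ± 21.3) and Avp (31.0 ± 34.6; SD, n = 5 each), which varied widely among rats. The sum is thus no measure of the hypothalamus as a whole. The summed means in C and AS were 993 and 1018 CPM for dorsal thalamus, 849.8 and 850.2 for prethalamus and zona incerta, and 188 and 210.4 for hypothalamus.

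**Figure D3:**
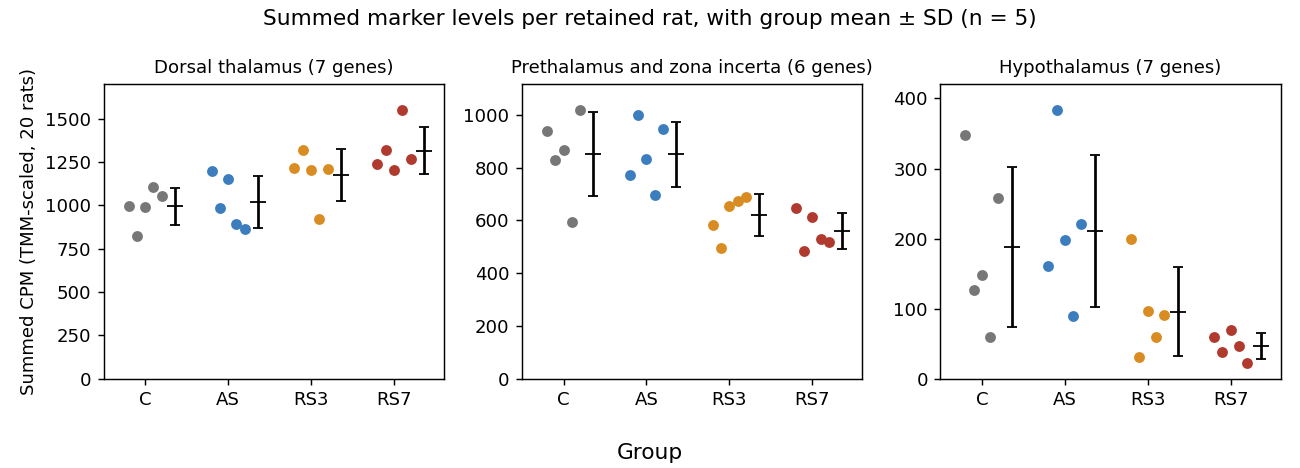
Summed CPM (y axis, TMM-scaled) of marker genes of dorsal thalamus (7 genes), of prethalamus and zona incerta (6 genes), and of hypothalamus (7 genes) in each retained rat by group (x axis), with mean ± SD (n = 5). The dorsal thalamus sum was highest in the RS7 rats (mean 1315 CPM, against 993 in C), while the other sums were lowest there (559 against 849.8 CPM, and 47.1 against 188 CPM).

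Other cell types could be followed through few genes. The neuronal list had 1 of 4 genes, Snap25, at 1553 ± 96.2 (C), 1428 ± 84.7 (AS), 1609 ± 99.1 (RS3) and 1692 ± 93.2 CPM (RS7; SD, n = 5 each). The astrocyte list had 3 of 6 (Aqp4, Slc1a2 and Slc1a3), led by Aqp4, which summed to 2050 ± 162 (C), 1873 ± 73.9 (AS), 1831 ± 53.6 (RS3) and 1897 ± 101 CPM (RS7). Its genes did not run alike, since from C to RS7 the log2 fold change was 0.20 ± 0.08 (SE) for Slc1a2, -0.19 ± 0.07 for Aqp4 and -0.10 ± 0.04 for Slc1a3. From AS to RS7 edgeR called Slc1a2 (0.42 ± 0.08) and Snap25 (0.24 ± 0.06), where 1.67% of all genes were called. For both, every RS7 rat lay above every AS rat, as for 2.39% of all genes, and both were selected on that comparison. Slc1a3 (-0.13 ± 0.04) and Aqp4 (0.04 ± 0.07) were not called there. From C to AS the log2 fold change was -0.23 ± 0.07 for Aqp4 (edgeR adjusted p = 0.461), -0.22 ± 0.08 for Slc1a2 (adjusted p = 0.461), -0.12 ± 0.06 for Snap25 (adjusted p = 0.479) and 0.03 ± 0.04 for Slc1a3 (adjusted p = 0.840). The part of these genes in the members' levels was not tested. Identifiers were at hand for 0 of 6 oligodendrocyte, 0 of 4 microglial, 0 of 4 endothelial and 0 of 4 ependymal and choroid plexus genes, which were not analysed here.

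Since the members were listed together, their promoters were searched for letters bound by known regulators of metabolism and of hormone and stress responses. RefSeq sequence of the GRCr8 assembly, 250 bases before the gene start, was found for Cndp2, Slc36a4 and Acbd5, the last with 2 starts. On both strands the letters CACGTG occur in 5.59% of the 33469 promoters of that table, ACGTG (which CACGTG contains) in 16.6%, TGACGTCA in 1.59%, ACANNNTGT in 5.81% and TCACNCCAC in 0.974%. Among the members' 4 promoters there was 1 match, an ACGTG on the reverse strand before the downstream start of Acbd5. That promoter is shown because it holds the match, on the forward strand at chr17:90114902-90115151 of GRCr8, with the matching letters in capitals, and the match is a description of the sequence only.
Acbd5: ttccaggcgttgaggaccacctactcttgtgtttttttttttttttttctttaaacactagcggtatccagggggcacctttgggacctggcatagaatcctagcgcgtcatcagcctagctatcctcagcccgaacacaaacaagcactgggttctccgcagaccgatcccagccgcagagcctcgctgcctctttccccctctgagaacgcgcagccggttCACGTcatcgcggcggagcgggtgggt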

How the data were processed

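Poly(A) RNA of 24 rats, taken from a block around the rPH, was sequenced as paired reads. The authors trimmed the reads (Trimmomatic 0.36), mapped them to the rn6 genome (HISAT2 2.0.5) and deposited read counts per Ensembl gene made with featureCounts. The sources used here do not state how strand, read pairs or multiply mapped reads were handled. Symbols came from the study's supplementary lists (779 genes). The left-out rats are not numbered in the study and were inferred from the normalized means printed in those lists, which 1 of 1296 possible sets gave for 808 of 808 genes (relative tolerance 1e-07). Groups were taken from the labels.

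Counts were tested in R 4.3.3 with edgeR 4.0.16 (TMM, a filter with a minimum count of 10, robust quasi-likelihood test over all 4 groups in 1 fit, Benjamini-Hochberg adjustment over all tested genes of a comparison). DESeq2 1.42.0, limma-voom 3.58.1 and the other alternatives are given in the closing section. Log2 CPM used a prior count of 2. The edgeR, DESeq2 and limma-voom tests were tested on simulated data. The 5 genes, the lists and the tests were chosen with earlier results of these data known. For each member, the 3 genes with a symbol and the highest correlation were named, except that 2 are given for Acaca, and 1 gene of the prethalamus list is not reported. Intervals cover 95%, from the normal approximation to the log2 fold change and its SE.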

Additional observations from a re-analysis of the deposited data

Results flagged for a closer look

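Among 44 groups of 5 values examined (the members, the marker sums and the percent of counts taken by 10 genes), 1 held a value far from the rest, and about 1 in 20 would by chance. It was the share of counts in 10 genes of RS7 rat 4, at 18.8%. That rat was the lowest of its group for Cndp2, Acaca, Slc36a4 and Pgk1. In the left-out rats, which only the fits with all 24 rats used, some levels exceeded the highest retained C rat on the scale set over 24 rats. Acbd5 was at 44.8 CPM in the AS rat, 24.9 in the RS3 rat and 34.3 in the RS7 rat, against at most 22.7 in the retained C rats, and the left-out C rat, at 23.8 CPM, was above these too. On unscaled totals these were 24.7, 22.0 and 25.2 CPM against at most 22.0, so that the RS3 rat was no longer above the C rats. Pgk1 was at 220.5 CPM in the AS rat and 159 in the RS7 rat, against at most 114. On unscaled totals these were 121 and 117 CPM against at most 123, so that neither was above the C rats. The share of counts in 10 genes was 46.3% and 33.8% in these AS and RS7 libraries, and its part in the values was not tested.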

How the results depend on the processing

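Each alternative changed 1 choice, except that DESeq2 changed the test, the size factors and the filter together, and limma-voom the test together with sample quality weights, and 3 were added after the data were seen (the share of counts in 10 genes as a covariate, the fit without C rats 21 and 22, and unscaled totals). Fits on other sets of rats, all 24 rats among them, were also filtered and scaled anew. In C versus RS7 edgeR called 1 member and 24 genes. DESeq2 called 5 members and 405 genes, limma-voom 3 and 164, no filter on low counts 3 and 64, all 24 rats 0 and 46, the covariate 1 and 11, and the fit without C rats 21 and 22 called 0 and 2. With only the groups compared, 0 members and 18 genes were called. In AS versus RS7 edgeR called 0 members and 270 genes, against 1 and 579 with DESeq2, 2 and 868 with limma-voom, 1 and 433 with only the groups compared, and 1 and 441 with the covariate. The edgeR fit without C rats 21 and 22 called Cndp2 (adjusted p = 0.0479), and all 24 rats gave 129 genes and none of the members. In the remaining comparisons, with 0 calls in edgeR, DESeq2 called 3 members and 36 genes in C versus RS3 and 3 genes in AS versus RS3, and the covariate 1 gene in C versus AS. The cause was not tested.

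Leaving out 1 rat at a time gave 0 to 1 members and 0 to 17 genes in C versus RS3, 0 to 5 and 0 to 560 in C versus RS7, and 0 to 1 and 46 to 403 in AS versus RS7. All 5 members were called in C versus RS7 without RS7 rat 4 (560 genes), Cndp2, Slc36a4 and Pgk1 without C rat 23 (241 genes), and 0 genes without C rat 19 or 21 or RS7 rat 3 or 6. In AS versus RS7 the genes called fell to 52, 92 and 46 without AS rats 14, 16 and 17, and to 81, 97 and 83 without RS7 rats 3, 5 and 6, and Cndp2 was called without C rat 23. In C versus RS7 the call of Cndp2 was lost without C rat 19, 21 or 22, AS rat 14, 15 or 17, RS3 rat 12, or RS7 rat 2, 3, 5 or 6. In those fits its log2 fold change was 0.387 to 0.446, against 0.437 in the main fit, and its edgeR adjusted p 0.0511 to 0.139. Acbd5 was called in AS versus RS7 without AS rat 15 (adjusted p = 0.0458), over a range from 0.0416 to 0.804 among its alternatives.

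The log2 fold changes that changed sign lay near 0 or included the left-out rats. From AS to RS3, Acaca came to 0.000155 with DESeq2, 0.0271 with limma-voom, 3.75e-05 with DESeq2 size factors, 0.0428 with all 24 rats, 0.000785 with only the groups compared, and -0.0279 to 0.0215 without 1 rat. With all 24 rats Acbd5 came to -0.0313 and Pgk1 to -0.12 in the same comparison, and Pgk1 to -0.0252 from AS to RS7. From RS3 to RS7, Slc36a4 came to -0.00652 with limma-voom, -0.00779 with all 24 rats, and -0.0274 to 0.0408 without 1 rat. Pgk1 there came to 0.00125 with DESeq2, 0.00624 with limma-voom, 3.23e-05 with DESeq2 size factors, 0.0946 with all 24 rats, 0.0444 with the covariate, and -0.0231 to 0.0335 without 1 rat. The cause was not tested. Of the 20 mean levels, 20 moved by less than 1 SD on unscaled totals, and 10 with all 24 rats. The scale over 24 rats also shifted retained rats, such as C rat 19 for Cndp2 from 79.9 to 75.1 CPM. Depth limits Acbd5 most among the members, with 153 reads in the retained rat with the fewest.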
